A study of Rattus norvegicus with 12 samples.

Results

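The genes of the mitochondrial ribosomal proteins were examined in RNA-seq libraries of the rat left atrium. They were chosen by symbol, as every gene with counts whose symbol was Mrpl or Mrps followed by a number. This gave 76 of 21239 genes with counts, 46 named for the large subunit (Mrpl) and 30 named for the small subunit (Mrps). The study had 4 groups of 3 rats, all male and 14 weeks old when purchased, and each group was treated for 4 weeks. Wistar-Kyoto rats (WKY), the normotensive control strain, received saline at 7.5 ml/kg/day. Spontaneously hypertensive rats (SHRs), an inbred strain that develops high blood pressure with age, received saline at the same dose (SHR group), valsartan at 30 mg/kg/day (ARB group, an angiotensin receptor blocker) or sacubitril/valsartan at 60 mg/kg/day (ARNI group, an angiotensin receptor-neprilysin inhibitor). SHR over WKY compares the strains as a whole and not blood pressure alone.

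Mitochondrial ribosomes (mitoribosomes) translate the few proteins that mitochondrial DNA encodes, which are core subunits of the respiratory chain and of ATP synthase. Their RNAs come from mitochondrial DNA, whereas all of their proteins are encoded in the nucleus, made in the cytosol and imported. Heart muscle is among the tissues richest in mitochondria, and inherited defects of several of these proteins cause cardiomyopathy in humans.

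Promoter sequences of the members that carry the comparisons are shown first. RefSeq windows of the rat assembly GRCr8, which run from 250 bases before to 50 bases after an annotated start, were found for 61 of the 76 members. Capitals mark matches to a motif of NRF1 (nuclear respiratory factor 1), of the ETS family (which includes GABP, also called NRF2) or of YY1, all of which are known regulators of nuclear genes for mitochondrial proteins. Mrpl4 (chr8:27815521-27815820, plus strand), Mrpl47 (chr2:117447312-117447611, minus strand) and Mrps18b (chr20:2842756-2843055, plus strand) are shown because they were among the members lower in SHR. Mrpl52 (chr15:31852686-31852985, plus strand) is shown because it went the other way. Mrpl46 (chr1:142116981-142117280, minus strand) and Mrps11 (chr1:142117014-142117313, plus strand) are shown because the outer ends of these genes, which face away from each other, are 15 bases apart in the gene table. The Mrps11 window belongs to another annotated start, further inside that gene, and both windows read largely the same DNA on opposite strands.
Mrpl4: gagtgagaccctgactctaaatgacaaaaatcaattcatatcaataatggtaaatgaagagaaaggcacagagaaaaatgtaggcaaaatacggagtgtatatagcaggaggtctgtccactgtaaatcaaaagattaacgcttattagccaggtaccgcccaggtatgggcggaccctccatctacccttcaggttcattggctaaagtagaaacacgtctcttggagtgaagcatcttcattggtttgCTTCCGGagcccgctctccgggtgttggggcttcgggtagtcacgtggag
Mrpl47: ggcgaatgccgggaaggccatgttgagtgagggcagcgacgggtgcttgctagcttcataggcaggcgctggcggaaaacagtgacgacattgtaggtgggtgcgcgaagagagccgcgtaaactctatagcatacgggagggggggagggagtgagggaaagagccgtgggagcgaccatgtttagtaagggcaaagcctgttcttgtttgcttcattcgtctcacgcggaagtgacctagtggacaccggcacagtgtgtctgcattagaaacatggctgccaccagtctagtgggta
Mrps18b: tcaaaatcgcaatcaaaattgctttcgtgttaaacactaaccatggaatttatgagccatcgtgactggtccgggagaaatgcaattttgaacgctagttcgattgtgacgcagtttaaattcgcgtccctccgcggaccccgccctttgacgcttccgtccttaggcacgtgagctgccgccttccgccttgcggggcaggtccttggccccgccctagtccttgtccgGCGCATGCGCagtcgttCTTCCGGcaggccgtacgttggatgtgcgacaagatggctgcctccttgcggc
Mrpl52: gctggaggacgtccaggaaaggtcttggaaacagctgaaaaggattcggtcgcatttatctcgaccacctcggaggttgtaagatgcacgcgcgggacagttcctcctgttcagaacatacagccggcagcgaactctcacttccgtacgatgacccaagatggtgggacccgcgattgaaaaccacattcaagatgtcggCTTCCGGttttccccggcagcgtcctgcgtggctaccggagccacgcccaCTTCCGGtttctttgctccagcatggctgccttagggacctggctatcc
Mrpl46: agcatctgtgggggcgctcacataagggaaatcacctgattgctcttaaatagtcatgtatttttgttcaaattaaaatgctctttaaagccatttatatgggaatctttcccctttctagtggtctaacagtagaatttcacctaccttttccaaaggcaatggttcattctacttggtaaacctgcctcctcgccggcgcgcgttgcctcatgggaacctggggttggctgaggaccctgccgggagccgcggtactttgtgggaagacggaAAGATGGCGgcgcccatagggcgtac
Mrps11: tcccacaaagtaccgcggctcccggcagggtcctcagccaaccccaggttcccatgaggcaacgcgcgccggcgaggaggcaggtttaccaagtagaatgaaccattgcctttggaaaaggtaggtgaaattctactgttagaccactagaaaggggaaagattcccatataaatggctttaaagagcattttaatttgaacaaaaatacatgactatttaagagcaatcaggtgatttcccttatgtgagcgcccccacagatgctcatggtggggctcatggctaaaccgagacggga

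The ETS motif CCGGAAG, on either strand, was in 34.4% of the 61 members with a window, against 17.6% of the tested genes with a window and 9.63% of all genes with one. The YY1 motif AAGATGGCG was in 14.8% of these members, against 3.66% of tested genes and 1.99% of all genes. For the NRF1 motif GCATGCGC the shares were 8.20%, 5.004% and 2.77%. At least 1 of these 3 motifs was in 30 of the 61 members (49.2%) and in 24.0% of tested genes. The GC box GGGCGG was in 50.8% of members and 62.1% of tested genes, the CCAAT motif in 44.3% and 38.8%, and the TATAAA motif in 13.1% and 7.73%. None of these motifs contains another, and Mrps18b held both an NRF1 and an ETS match. A gene with several windows counted once if any window held the motif. A match is a description of the letters and not evidence of binding, and the window of Mrpl47 held none of the 3 marked motifs.

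**Figure D1:**
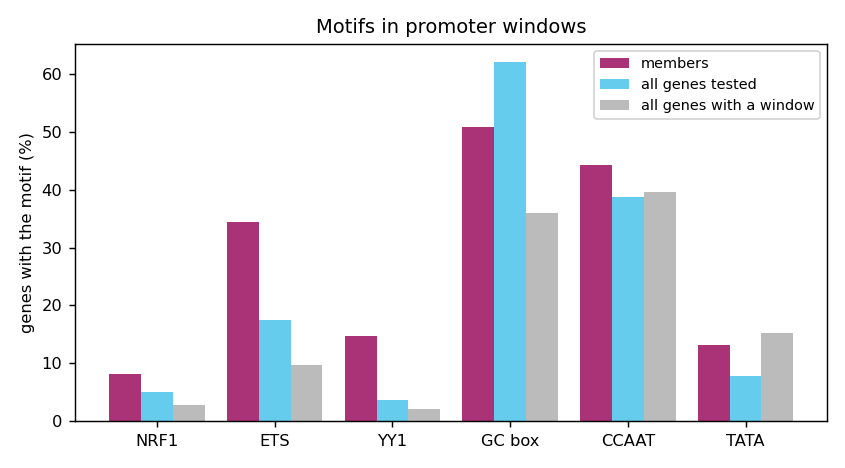
Share of genes (%, vertical axis) whose promoter window held each motif (horizontal axis) on either strand, for the 61 members with a window, all tested genes with a window and all genes with a window. The ETS bar of the members (34.4%) and their YY1 bar (14.8%) stand above the bars of all tested genes (17.6% and 3.66%).

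By gene boundaries, the start of some members lay within 1000 bases of the start of a gene on the opposite strand that faces away. This was found for 17 of 61 members (27.9%), against 7.47% of 18999 protein-coding genes. Those genes were not limited to the ones tested here, and both Mrpl46 and Mrps11 count among the 17. The pair Mrpl46 and Mrps11 joins a large subunit protein with a small subunit protein. Other partners were Fau, a ubiquitin-like fusion to a cytosolic ribosomal protein, next to Mrpl49; Psma2, a proteasome subunit, next to Mrpl32; and Ptcd2, a mitochondrial RNA-binding protein, next to Mrps27.

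Before the members are compared, the libraries need a description. Total counts were 11252361 to 15823525 per library, and 3 counts, the limit that a count of 0 allows, were worth 0.190 to 0.267 CPM (counts per 1e+06 counts of the library, counting error only). The libraries are grouped by the names SHR, WKY, ARB and ARNI that they carry in their titles and count columns. In the titles of the 6 saline libraries the strain words say the opposite of these names, and the strain entry reads Wistar-Kyoto for all 12. WKY and SHR below are therefore the library names. Although all 12 are labelled left atrium, the 3 WKY libraries and ARNI replicate 2 held 52.4 to 280 CPM and 74.2 CPM of 6 summed atrial markers (Nppa, Myl7, Myl4, Sln, Bmp10 and Mybphl), against 27693 to 77097 CPM in the other 8. None of the 6 was at 0 in ARNI replicate 2, while 0 to 2 of the 6 were at 0 in the WKY libraries. The 6 ventricular markers (Myl2, Myl3, Irx4, Hey2, Mybpc3 and Myh7) summed to 47101 to 47367 CPM in WKY. Their sum was 22175 CPM in ARNI replicate 2, 13327 CPM in ARB replicate 3 and 13052 CPM in SHR replicate 2. In the other 6 it was 3293 to 3965 CPM, of which Mybpc3 made up 2709 to 3315 CPM. Mybpc3 was at 2702 to 3832 CPM over all 12 libraries and did not set them apart. Myl2, the ventricular regulatory light chain, was at 3489 to 3776 CPM in WKY, 2298 CPM in SHR replicate 2, 2573 CPM in ARB replicate 3, 4161 CPM in ARNI replicate 2 and 0.135 to 24.2 CPM elsewhere. Results are given with and without these 3 libraries of SHRs, whereas all 3 WKY libraries held ventricular markers. Tissue origin and strain cannot be told apart between WKY and the other groups. In whole tissue, fewer cells of a type and less RNA per cell cannot be told apart either.

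The members together took a steady share of the WKY libraries and a varying share of the others. Their summed level was 4088, 4128 and 4106 CPM in WKY. It was 3126, 3999 and 2743 CPM in SHR, 3239, 3065 and 4482 CPM in ARB, and 2771, 4501 and 3368 CPM in ARNI. The group means were 4107 ± 19.8 CPM in WKY, 3289 ± 643 CPM in SHR, 3595 ± 773 CPM in ARB and 3547 ± 879 CPM in ARNI (SD, n = 3 each). The highest library of each SHR-strain group was the 1 with ventricular markers. Genes named for the large and for the small subunit varied together. The ratio of the Mrps sum to the Mrpl sum stayed between 0.550 and 0.591 in all 12 libraries. The Mrps sum includes Mrps18a, Mrps30 and Mrps36, which are not proteins of the small subunit.

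**Figure D2:**
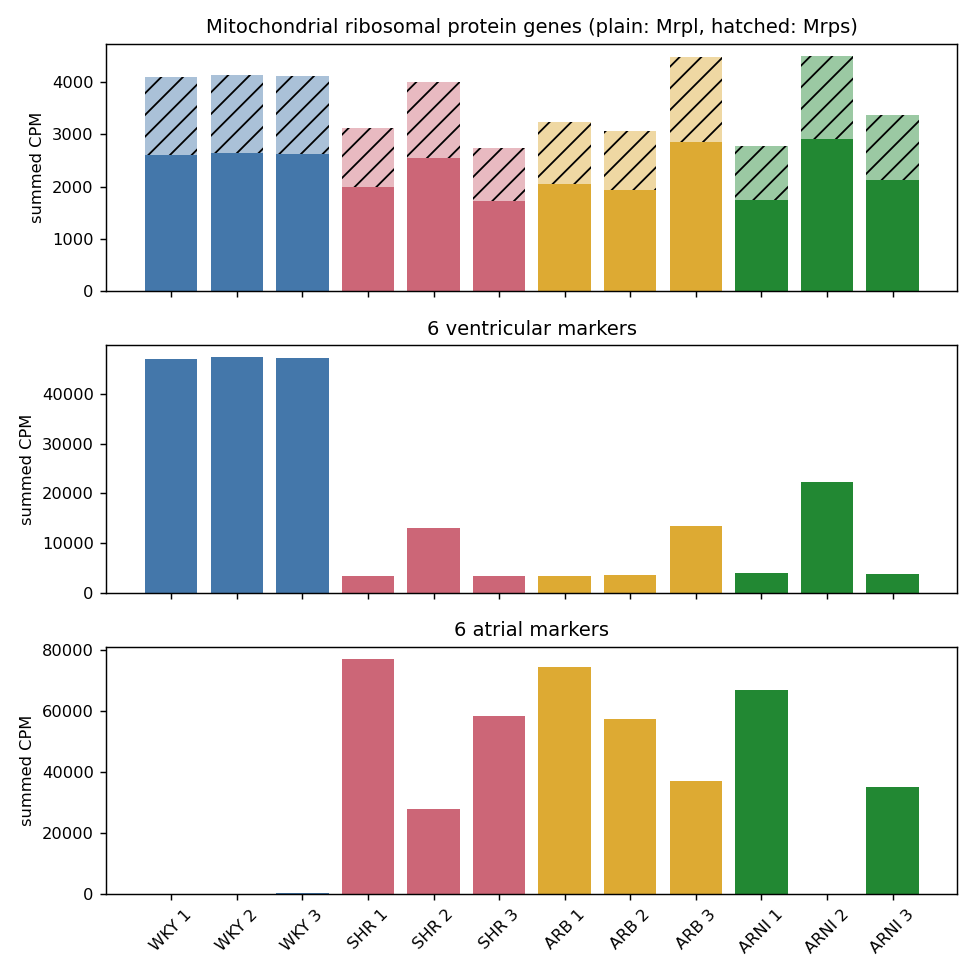
Summed level (CPM, vertical axes) in each of the 12 libraries (horizontal axis). The panels show the member genes (top, Mrpl plain and Mrps hatched), 6 ventricular markers (middle) and 6 atrial markers (bottom). SHR replicate 2, ARB replicate 3 and ARNI replicate 2 hold the tallest member bar of their group (3999, 4482 and 4501 CPM) and 13052 to 22175 CPM of ventricular markers, against 3293 to 3965 CPM in the other SHR-strain libraries. Most of the sum in those other libraries was Mybpc3 (2709 to 3315 CPM).

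This held gene by gene. Of the 75 members tested, 67 were highest within SHR in replicate 2, 73 within ARB in replicate 3 and 67 within ARNI in replicate 2, and 65 were highest in all 3 of these libraries. Among all genes tested the shares were 26.5%, 30.5% and 24.8%. Relative to the mean WKY level, the median member stood at 0.00 (log2) in SHR replicate 2, 0.16 in ARB replicate 3 and 0.25 in ARNI replicate 2. It stood at -0.44 and -0.68 in the other SHR libraries, -0.31 and -0.54 in the other ARB libraries, and -0.56 and -0.39 in the other ARNI libraries. The median coefficient of variation of the members was 4.41% within WKY, 20.9% within SHR, 20.9% within ARB and 23.0% within ARNI, and for all tested genes 8.42%, 16.8%, 18.2% and 22.4%. The part of the ventricular tissue in these differences was not tested.

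**Figure D3:**
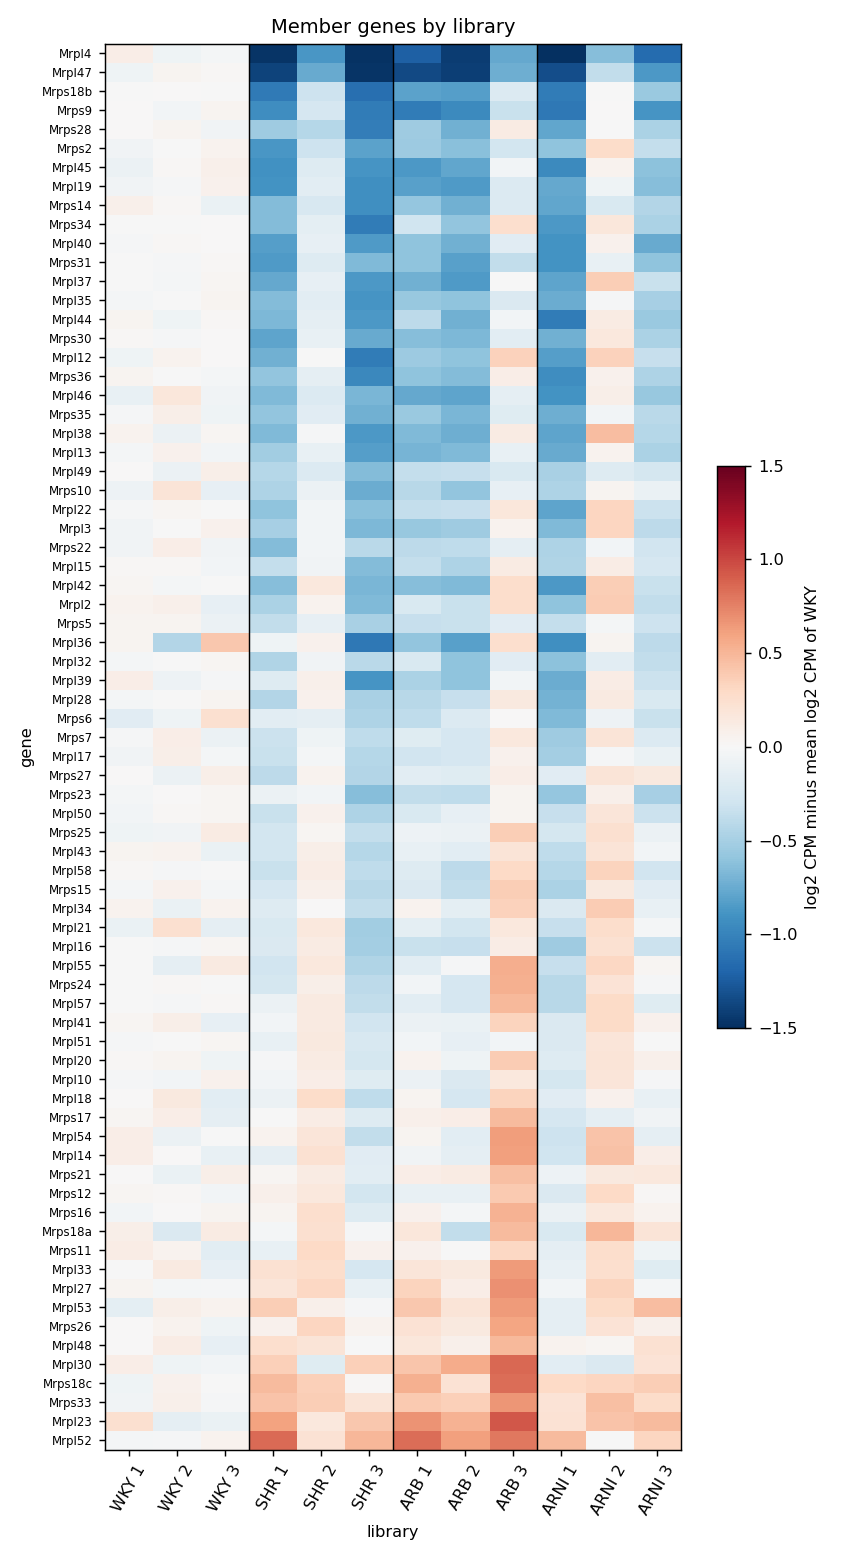
Level of each of 74 member genes (rows, ordered by the SHR over WKY difference) in each library (columns), as log2 CPM minus the mean log2 CPM of the 3 WKY libraries, with blue below and red above WKY. The columns SHR 2, ARB 3 and ARNI 2 are paler or redder than the others of their groups, and the rows Mrpl4 and Mrpl47 stay blue in all 9 libraries of SHRs.

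SHR over WKY asked which genes differ between the hypertensive and the normotensive line. A few members were lower in SHR and none passed the test in the other direction. Of 75 members tested, 5 were lower at an adjusted p of at most 0.05 (6.67%), against 8.26% of all 13794 genes, and 0 were higher, against 12.3% of all genes. The share lower was thus near that of all genes. At an unadjusted p under 0.05, 30 of 75 members were lower and 1 was higher, against 2501 and 2927 of all 13794 genes. DESeq2 called 21 of 76 members lower and 0 higher, against 1795 and 1854 of 21239 genes. The median log2 fold change was -0.38 over the members and 0.01 over all genes, and 66 of 75 members were below 0, against 48.7% of all genes. With the fold threshold of the study added (a log2 difference of 1 or more in size), 2 members remained lower, Mrpl4 and Mrpl47, and the share among all genes was 3.35%.

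Mrpl4 and Mrpl47 stood furthest from WKY. Mrpl4, a large subunit protein with a bacterial counterpart, was at 199, 178 and 182 CPM in WKY and 67.1, 102 and 66.5 CPM in SHR. Its level was 79.5, 69.3 and 109 CPM in ARB and 60.9, 120 and 83.5 CPM in ARNI. All 9 libraries of SHRs were below all 3 WKY libraries, those with ventricular markers included. The log2 fold change SHR over WKY was -1.37 ± 0.21 (SE, edgeR adjusted p = 0.012). Mrpl47, a protein at the exit of the tunnel through which the nascent chain leaves, was at 53.3, 57.2 and 56.4 CPM in WKY and 21.3, 33.0 and 20.1 CPM in SHR. It was at 21.8, 20.9 and 33.5 CPM in ARB and 22.1, 43.0 and 30.6 CPM in ARNI, again without overlap with WKY. Its log2 fold change was -1.29 ± 0.23 (SE, edgeR adjusted p = 0.016). The Mrpl47 counts were fractional in all 12 libraries, which means that reads were shared with other sequences.

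The other 3 members called were small subunit proteins. Mrps18b, of the S18 family, was at 96.8, 96.9 and 96.7 CPM in WKY and 46.4, 77.9 and 44.2 CPM in SHR (log2 fold change -0.90 ± 0.25 SE, edgeR adjusted p = 0.049). Mrps2, with a bacterial counterpart, was at 43.1, 44.3 and 46.4 CPM in WKY and 24.3, 36.0 and 25.5 CPM in SHR (-0.77 ± 0.19, edgeR adjusted p = 0.035). Mrps28 was at 12.4, 12.7 and 11.9 CPM in WKY and 8.56, 9.15 and 6.03 CPM in SHR (-0.77 ± 0.21, edgeR adjusted p = 0.045). WKY and SHR did not overlap for any of the 3. In ARNI replicate 2, Mrps2 was above every WKY library at 53.8 CPM, and Mrps18b, at 96.6 CPM, was just below the WKY libraries. Over the other settings tried, apart from leaving out single libraries, adjusted p ran from 6.9e-08 to 0.039 for Mrpl4 and from 7.6e-06 to 0.042 for Mrpl47, while the upper ends for Mrps18b, Mrps2 and Mrps28 were 0.114, 0.099 and 0.138.

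**Figure D4:**
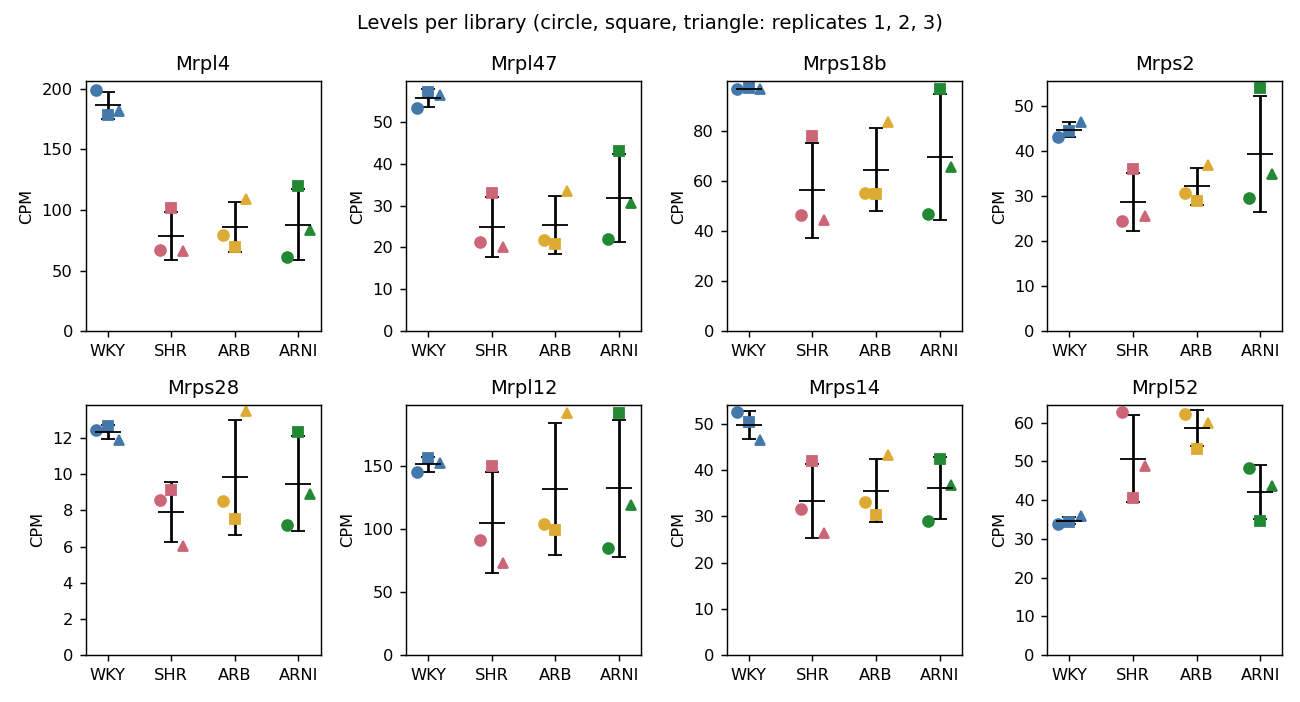
Level (CPM, vertical axes starting at 0) of 8 member genes in each library, by group (horizontal axis), with the replicate shown by the point's shape and the group's mean and SD (n = 3) as bars. Mrpl4 and Mrpl47 lie below WKY in all 9 libraries of SHRs, Mrps2 lies above WKY in ARNI replicate 2, where Mrps18b (96.6 CPM) is just below it, and Mrpl52 lies above WKY in all 3 SHR libraries.

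Removing SHR replicate 2, the SHR library with ventricular markers, changed the count. Without it, 46 of 75 members were lower (61.3%), against 18.6% of 14035 genes, and 1 was higher, Mrpl52, against 19.2% of genes. The median was then -0.55 over the members and 0.02 over all genes. Without any single WKY library 0 members were called, without SHR replicate 1 the count was 1, and without SHR replicate 3 it was 3. Fewer of all genes were lower in these fits too, compared with 1139 of 13794 with all 6 libraries. The count was 142 of 14138 without WKY replicate 1, and smaller without WKY replicate 2 or 3. It was 291 of 14012 without SHR replicate 1 and 1014 of 13943 without SHR replicate 3. In the fit without SHR replicate 2, Mrpl4 was at -1.65 ± 0.11 (SE, edgeR adjusted p = 0.00016) and Mrpl47 at -1.60 ± 0.10 (edgeR adjusted p = 0.00018). The WKY libraries carry the ventricular markers in that comparison too.

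**Figure D5:**
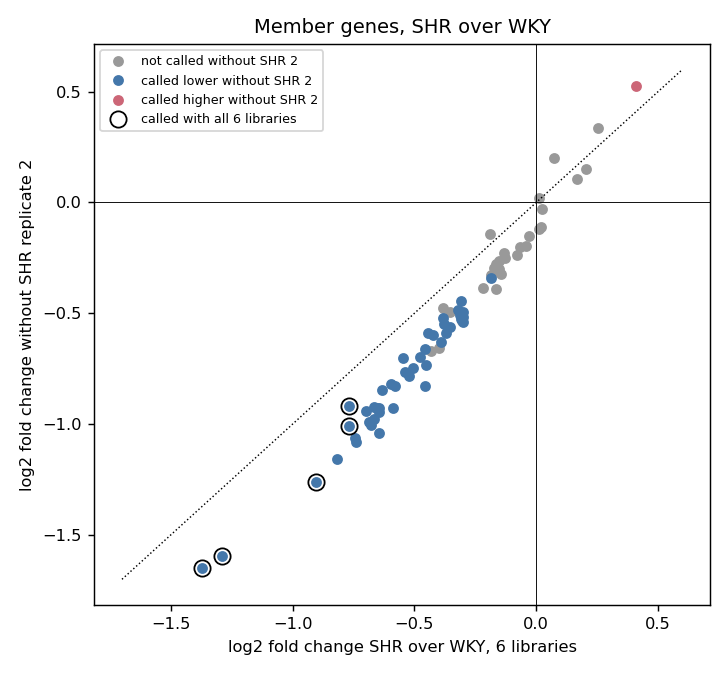
Log2 fold change SHR over WKY of the 75 tested members with all 6 libraries (horizontal axis) and without SHR replicate 2 (vertical axis), on linear scales of log2 units, with the line of equal values dotted. Nearly all points lie below the line; 5 members were called with 6 libraries (ringed), and 46 lower (blue) and 1 higher (red) without SHR replicate 2.

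Levels were also compared library by library, as CPM without further scaling, for members and all genes alike. With library totals as the only scaling, the median log2 fold change over all genes was 0.15, against 0.01 in the main fit. In 26 members every WKY library lay above every SHR library, against 15.9% of genes, and in 2, Mrpl52 and Mrps33, every WKY library lay below, against 33.7%. In 8 members WKY lay above all 9 libraries of SHRs, against 6.81% of genes. These were Mrpl4, Mrpl19, Mrpl32, Mrpl47, Mrpl49, Mrps14, Mrps18b and Mrps31, of which those outside the naming rule are named after their values were seen. Mrps33 was below all 9, against 10.1% of genes. Against the 6 libraries of SHRs with low ventricular markers, WKY was higher in 43 of 75 members (57.3%), against 15.6% of genes, and lower in 2, the same Mrpl52 and Mrps33, against 31.6%.

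Mrpl52, a protein of the central protuberance of the large subunit, was named after its values were seen, for its opposite course. It was at 33.9, 34.3 and 35.8 CPM in WKY and 62.7, 40.5 and 48.9 CPM in SHR, with no overlap (log2 fold change 0.41, edgeR adjusted p = 0.10). It was at 62.3, 53.3 and 60.0 CPM in ARB and 48.4, 34.7 and 43.5 CPM in ARNI. Within SHR and within ARNI its lowest library was the 1 with ventricular markers, so it ran against most members there. Mrpl52 counts were also fractional. Its neighbour in the opposite direction, Slc7a7, an amino acid transporter, was at 3.15 to 3.91 CPM in WKY and 19.1, 5.83 and 25.9 CPM in SHR (log2 fold change 2.09, edgeR adjusted p = 0.031).

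By role, the members were alike in direction more than in size. Of 29 tested members named for the small subunit 3 were lower (median log2 fold change -0.38). Of 46 named for the large subunit 2 were lower (-0.37). The share of all genes was 8.26%. Without SHR replicate 2, these counts were 18 and 28, with 18.6% of all genes lower. A list of members with a bacterial counterpart, which may not be complete, held 42 members, of which 4 were lower (median -0.38). Of 32 members not on that list 1 was lower, Mrps28 (median -0.36). These counts therefore do not separate members with and without a bacterial counterpart.

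In the stalk of the large subunit, which recruits translation factors, 0 of 4 members passed the test. Mrpl12, the stalk protein proper, which also binds the mitochondrial RNA polymerase, was at 145, 157 and 152 CPM in WKY and 91.5, 150 and 73.2 CPM in SHR. SHR replicate 2 lay within the WKY range (log2 fold change -0.64 ± 0.29 SE, edgeR adjusted p = 0.15). Mrpl12 had the highest mean CPM of the members over all 12 libraries, a value not corrected for transcript length. Mrpl10, the stalk base, was at 56.4 to 60.3 CPM in WKY and 51.0 to 62.2 CPM in SHR, and Mrpl54 at 66.4 to 75.5 and 55.0 to 79.9 CPM. Mrpl53 was at 24.9 to 29.4 and 27.1 to 35.6 CPM. These 3 overlapped between the groups.

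At the exit of the tunnel 1 of 5 members was lower (Mrpl47), and 4 of 5 without SHR replicate 2. Mrpl45, which anchors the mitoribosome to the inner membrane, was at 104, 113 and 117 CPM in WKY and 59.4, 97.6 and 60.5 CPM in SHR (log2 fold change -0.74 ± 0.24 SE, edgeR adjusted p = 0.065). In the central protuberance 0 of 9 members passed (5 lower and 1 higher without SHR replicate 2), and in the head of the small subunit 0 of 7 (6 lower without it). With all 6 libraries 6.67% of all members were lower, against 8.26% of all genes. Without SHR replicate 2 these shares were 61.3% and 18.6%.

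The 4 members whose human counterparts are mutated in cardiomyopathy were below WKY in SHR replicates 1 and 3, and none passed the test. Mrpl3, which reaches towards the peptidyl transferase centre, was at 115 to 125 CPM in WKY and 85.2, 116 and 75.0 CPM in SHR. Mrpl44, an RNase III-like protein, was at 39.7 to 42.6 CPM and 25.9, 37.7 and 22.8 CPM. Mrps14 was at 46.6 to 52.5 CPM and 31.7, 42.1 and 26.4 CPM, without overlap (log2 fold change -0.70 ± 0.20 SE, edgeR adjusted p = 0.054). Mrps22 was at 38.0 to 42.1 CPM and 25.1, 38.2 and 29.7 CPM. All 4 were called lower without SHR replicate 2, with log2 fold changes of -0.70 to -0.94. In that fit 61.3% of all members and 18.6% of all genes were lower.

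Some symbols differ from the structure. Mrps18a and Mrps30 sit in the large subunit, and Mrps36 (now Kgd4) is a component of the ketoglutarate dehydrogenase complex of the citrate cycle. Mrps36 was at 130 to 137 CPM in WKY and 88.1, 121 and 68.1 CPM in SHR, and Mrps30 at 67.6 to 69.1 and 39.5, 63.2 and 40.4 CPM. Mrps18a overlapped, at 32.8 to 41.3 and 37.3 to 45.02 CPM. Mrps12, part of the decoding centre, overlapped too, at 24.5 to 25.7 and 20.9 to 28.2 CPM. Mrps5, at the entry of the mRNA channel, was at 53.8 to 59.0 CPM in WKY and 44.4, 52.4 and 41.0 CPM in SHR (log2 fold change -0.45 ± 0.14 SE, edgeR adjusted p = 0.064). Mrps21l, the member with the lowest level, was at 0 to 0.538 CPM and was not tested. Mrpl1 was listed at 0 in WKY replicate 1, ARB replicate 3 and ARNI replicate 1 and at 4.30 to 18.8 CPM elsewhere. Most of its values were fractional, and its level is uncertain.

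Genes that start next to a member in this way did not always have a similar value. Mrpl37 (log2 fold change -0.67, edgeR adjusted p = 0.080) and its neighbour Cyb5rl (-0.58, edgeR adjusted p = 0.13) had close values. Mrpl46 was at 25.2, 30.7 and 26.2 CPM in WKY and 17.2, 23.7 and 17.0 CPM in SHR (log2 fold change -0.63, edgeR adjusted p = 0.055). Mrps11, whose gene boundary is 15 bases away, was at 25.5, 24.6 and 21.2 CPM and 22.0, 29.1 and 24.7 CPM (-0.04, edgeR adjusted p = 0.86). Next to Mrps27 (-0.37, edgeR adjusted p = 0.18), Ptcd2 was lower in SHR (-1.13, edgeR adjusted p = 0.014). Next to Mrps18b, Ppp1r10, a regulatory subunit of a protein phosphatase, was at 39.8 to 50.6 CPM in WKY and 62.8, 59.3 and 137 CPM in SHR (0.78, edgeR adjusted p = 0.10). The difference between partners was not tested.

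Other genes of mitochondrial translation are read against the same shares of all genes lower, 8.26% with all 6 libraries and 18.6% without SHR replicate 2. Of 16 translation factors 4 were lower and 0 higher (median log2 fold change -0.69), among them Tsfm, the elongation factor Ts (-0.77 ± 0.15 SE, edgeR adjusted p = 0.021), and Gfm2, which acts in ribosome recycling (-1.02 ± 0.21, edgeR adjusted p = 0.023). Tufm, the elongation factor Tu, was at 260 to 296 CPM in WKY and 131, 225 and 133 CPM in SHR (edgeR adjusted p = 0.055). Of 19 genes for mitochondrial aminoacyl-tRNA synthetases and the related amidotransferase 6 were lower (median -0.57), and of 26 assembly factors 6 were lower (median -0.46), among them Mrm3, a methyltransferase of the large ribosomal RNA (-1.02 ± 0.18 SE, edgeR adjusted p = 0.016). Without SHR replicate 2 these counts were 13, 16 and 15. Of 12 genes that transcribe or copy mitochondrial DNA 1 was lower, Polrmt, the mitochondrial RNA polymerase (-0.94 ± 0.15 SE, edgeR adjusted p = 0.013). Of 9 regulators, 2 were lower, the coactivators Ppargc1b (-1.26 ± 0.30 SE, edgeR adjusted p = 0.032) and Ppargc1a (-0.64 ± 0.17, edgeR adjusted p = 0.040). Nrf1, Gabpa and Yy1, whose motifs were searched, had log2 fold changes of -0.07, -0.21 and -0.15 and did not pass the test (edgeR adjusted p = 0.72, 0.14 and 0.26). Of 5 mitoribosomal proteins with other symbols, none passed, with Ptcd3 at 97.9 to 115 CPM in WKY and 53.5, 88.0 and 58.3 CPM in SHR (edgeR adjusted p = 0.050007).

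Subunits of the respiratory chain encoded in the nucleus were called in larger number without SHR replicate 2. Of 81 tested, 2 were higher and 1 lower with all 6 libraries (median -0.41), fewer than the 12.3% and 8.26% of all genes. Without SHR replicate 2, 2 were higher and 56 lower (median -0.71), against 19.2% and 18.6% of all genes. The cytosolic ribosomal proteins, which build the other ribosome of the cell, had a median of 0.24, with 8 of 76 higher and 1 lower, both below the shares of all genes (12.3% and 8.26%).

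For the treatments the questions were whether valsartan or sacubitril/valsartan changed these genes in SHRs and whether the drugs differed. No member passed the test. In ARB over SHR, ARNI over SHR and ARNI over ARB, 0 of 75 members were called in either direction, and 0% of all 13979, 13955 and 13948 genes tested were called by edgeR. DESeq2 also called 0 members in each. At an unadjusted p under 0.05 the members numbered 0, 0 and 2, both lower in ARNI than in ARB. Of all genes, 113, 114 and 309 were higher and 112, 113 and 230 lower at that threshold. ARB over SHR and ARNI over SHR share the SHR libraries, and ARB and ARNI each enter ARNI over ARB as well. The median log2 fold change of the members was 0.15, 0.19 and 0.02, against -0.006, 0.004 and 0.02 over all genes. Above 0 were 70, 67 and 46 of 75 members, against 48.6%, 50.7% and 53.2% of all genes.

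The medians changed when single libraries with ventricular markers were left out. The ARB over SHR median was -0.07 without ARB replicate 3 and 0.36 without SHR replicate 2. The ARNI over SHR median was -0.09 without ARNI replicate 2 and 0.39 without SHR replicate 2. In ARNI over ARB it was -0.26 without ARNI replicate 2 and 0.26 without ARB replicate 3, and it was also below 0 without ARB replicate 1 (-0.03) or replicate 2 (-0.10). With all 3 libraries with ventricular markers left out, 2 against 2, the medians of ARB over SHR and ARNI over SHR stayed above 0, at 0.12 and 0.11, and that of ARNI over ARB was -0.03. Again 0 members were called. The libraries left differed in other markers as well. Summed fibroblast markers were at 4843 CPM in SHR replicate 3 and 1706 CPM in SHR replicate 1. Summed white adipocyte markers were at 346 CPM in ARB replicate 2 and 209 CPM in ARNI replicate 3, against 0.0669 to 0.135 CPM elsewhere among them. Ucp1, a brown adipocyte marker, was at 15.6 and 182 CPM in these 2 libraries. The part of these tissues in the medians was not tested.

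The members with the smallest p in each comparison show the spread. In ARB over SHR they were Mrpl30 (log2 fold change 0.46 ± 0.23 SE), Mrpl23 (0.36 ± 0.19), Mrpl53 (0.31 ± 0.20) and Mrpl34 (0.31 ± 0.21), all with an edgeR adjusted p of 0.9999. Mrpl30 was at 6.94, 4.79 and 6.95 CPM in SHR and 7.23, 7.95 and 9.85 CPM in ARB, without overlap, and its counts were fractional. In ARNI over SHR they were Mrps27 (0.39 ± 0.23), Mrps2 (0.56 ± 0.34), Mrpl47 (0.46 ± 0.36) and Mrpl34 (0.31 ± 0.26), with an edgeR adjusted p of 0.9993. Mrps27 was at 50.3, 68.9 and 48.8 CPM in SHR and 59.0, 75.9 and 73.5 CPM in ARNI, and the groups overlapped. In ARNI over ARB they were Mrpl52 (-0.43 ± 0.15), Mrpl30 (-0.62 ± 0.23), Mrps17 (-0.32 ± 0.19) and Mrpl23 (-0.28 ± 0.19), with an edgeR adjusted p of 0.99. Mrpl52, Mrpl30, Mrps17 and Mrpl23 did not overlap between ARB and ARNI, Mrpl30 being at 4.86, 4.67 and 6.22 CPM in ARNI. The share of all genes without overlap was not counted for these groups.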

How the data were processed

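RNA was extracted from rat tissue labelled left atrium and sequenced as single-end 50 base reads on a BGISEQ-500. The authors filtered the reads, mapped them with HISAT2 (2.0.4) and Bowtie2 (2.2.5) and estimated levels with RSEM, and the submitters' processing notes name the genome build Rnor_6.0. The deposited values used here are the expected counts per gene, raw and not normalized, in which a read shared between genes is split, so that 23.6% of all values and 24.0% of the member values are not whole (tolerance 1e-06). The same table holds the authors' own fold change and p-value for SHR against WKY, which were not used. Of 37246 genes listed, 21239 had counts. All 12 libraries were used, with totals of 11252361 to 15823525, and depth limits the precision of members with few counts.

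Counts were rounded, genes with low counts were removed with filterByExpr, libraries were scaled with TMM and each pair of groups was fitted with the quasi-likelihood test of edgeR (4.0.16) in R (4.3.3), two-sided, with Benjamini-Hochberg adjustment over all genes tested and a threshold of 0.05. Reported CPM are counts divided by the library total without TMM. The SE of an edgeR log2 fold change is its size divided by the square root of the F statistic of the test. The script was tested on simulated data. Libraries were grouped by the names in their titles. Alternatives were DESeq2 (1.42.0), other scalings, no filter, 1 fit of all libraries, a block for the replicate number, each library left out and the libraries with ventricular markers left out. Named were the members called in a comparison (or the 4 with the smallest p where fewer passed), those of the stalk and cardiomyopathy lists, those whose structure differs from their symbol, Mrps12, Mrpl45, Mrps5, and the members with the highest and lowest mean. Members, gene lists and tests were chosen with earlier results of these data known. All 76 member IDs matched the RefSeq gene table (GRCr8), which, because of the different build, was used only for names, neighbours and promoter windows. An item of the closing observations is not reported here.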

Additional observations from a re-analysis of the deposited data

How the results depend on the processing

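The count of members lower in SHR than in WKY (5 with all 6 libraries) depended on the processing. It was 21 with DESeq2, 8 with RLE scaling, 3 with no filter on low counts, 2 in 1 fit of all 12 libraries and 46 without the libraries with ventricular markers. It ranged from 0 to 46 when single libraries were left out (0 without any WKY library, 46 without SHR replicate 2). The count of all genes lower moved in the same direction, from 1139 of 13794 with all 6 libraries. It was 142 of 14138 without WKY replicate 1 and 2617 of 14035 without SHR replicate 2. The count of members higher (0) was 1 with library totals only, against 2560 of 13794 genes. It ranged from 0 to 1 when single libraries were left out, with 1 without SHR replicate 2, against 2693 of 14035 genes. With library totals only, the median over all genes moved to 0.15 (log2) and that of the members to -0.25. With single libraries left out, edgeR adjusted p ran from 0.00016 to 0.056 for Mrpl4 (called in 3 of 6) and from 0.00018 to 0.070 for Mrpl47 (2 of 6), and at most 2 of 6 settings called Mrps18b, Mrps2 or Mrps28. The cause was not tested, except that leaving out a library reduces the samples.

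Same-numbered libraries did not deviate together in every pair of groups (correlations from -0.445 to 0.516), so the numbers were not taken as pairs, and the fit with the replicate block called 2 members lower. Directions turned for some members that did not pass the test. Mrpl53 was at -0.0006 with RLE scaling and ranged from -0.11 to 0.13 with single libraries left out, and Mrps18a was at 0.064 with library totals only and ranged from -0.20 to 0.018. Mrpl54 ranged from -0.30 to 0.027 and Mrps12 from -0.25 to 0.029. The counts for the treatments stayed at 0 in every setting run. Adding the mitoribosomal proteins with other symbols, or taking plain symbols only, left the SHR over WKY count at 5. The comparison of WKY with the 6 libraries low in ventricular markers was added after seeing the data. Library totals without mitochondrially encoded genes were not run, since the symbols searched matched 0 genes of the table.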

Other observations

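Over 14083 genes and all 12 libraries, genes whose level (log2 CPM) closely followed the mean of the members were Cisd1, an iron-sulfur protein of the outer mitochondrial membrane (Pearson r = 0.99), Psmb7, a proteasome subunit (0.99), Tnni3, cardiac troponin I (0.98), and MGC94207 (0.98). The points share the library and its depth, and the values are a description.

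Cytosolic ribosomal protein genes took 16139 to 18154 CPM in WKY, 20662 to 25409 CPM in SHR, 23625 to 32997 CPM in ARB and 17982 to 22433 CPM in ARNI. The 3 WKY libraries lay below all 3 SHR libraries, and ARNI replicate 2 lay within the WKY range. Of the cytosolic genes called, Rpl3 was higher in SHR than in WKY (log2 fold change 1.54, edgeR adjusted p = 0.0093) and Rplp1 lower (-0.84, edgeR adjusted p = 0.016). Cytosolic ribosomal protein genes have many near-identical copies, so these values are uncertain.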
